A study of Mus musculus with 12 samples.

Results

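The suppressors of cytokine signalling (the SOCS family, Cish and Socs1 to Socs7) are 8 genes that were taken from the count table by symbol. All 8 were among the 55011 gene symbols of the table, and all 8 were among the 13295 genes with enough counts to be tested. RNA was measured in regulatory T cells (Treg), the CD4 T cells whose identity rests on the transcription factor Foxp3 and which hold other immune cells in check. Male C57BL/6 mice, 21 days old, gave the spleens and lungs. The sort kept live cells positive for CD4, TCRβ, CD25 and GFP. Libraries of polyadenylated RNA were made from 1000 cells each by Smart-seq2, which amplifies RNA along the whole transcript.

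There were 4 groups of 3 libraries. Spleen ∆Foxp3 is given in the labels as ∆Foxp3.EGFP.iCre X R26.YFP, and lung ∆Foxp3 as ∆Foxp3.ires.GFP. Spleen WT and lung WT both carried Foxp3.ires.GFP, a reporter allele with Foxp3 intact. The extraction protocol names ∆Foxp3.ires.GFP with either tissue, and the sources thus differ on which deleted allele the spleens carried. Which stretch of Foxp3 either allele lacks is not stated there. Nothing in the labels says whether libraries of a group came from separate or pooled mice, so the spread behind each p-value, that among libraries, may be technical.

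Cytokines such as IL-2, IL-4, IL-6 and the interferons signal through receptor chains bound to JAK kinases, which phosphorylate STAT transcription factors. STAT factors in turn switch on SOCS genes, whose products bind phosphorylated receptors or the kinases themselves and shut the signal down. Each SOCS protein has an SH2 domain, which binds phosphotyrosine, and a SOCS box, which recruits elongins, cullin 5 and Rnf7 and so marks bound proteins for degradation. In Treg the best known inducer of Cish is IL-2 acting through STAT5, while Socs1 is known from mice to keep Treg stable under inflammatory cytokines.

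Library totals were 3958892 to 9025150 counts. Counts of single members in a library ran from 24 (Socs5) to 4450 (Cish), far above a floor of 3 counts. That floor was 0.332 to 0.758 CPM by library totals, without TMM factors. Gene levels in CPM are TMM-scaled counts per unit of library size, in the usual CPM unit. Foxp3 was at 114 to 227 CPM in spleen ∆Foxp3, against 991 to 1096 CPM in spleen WT. It was at 189 to 469 CPM in lung ∆Foxp3, against 1328 to 1418 CPM in lung WT. The T cell genes Cd4, Cd3e, Trbc1 and Trbc2 were each at 481 CPM or more in all 12 libraries. In an earlier look at these data spleen WT 1, lung WT 1 and lung ∆Foxp3 3 stood apart from their groups, and calls that end without them are named with each gene.

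Cish, whose product CIS docks on the IL-2 receptor and related receptors and so limits STAT5 signalling, was higher in ∆Foxp3 cells than in WT cells of both tissues. The gene lies on chromosome 9, 107296026 to 107302784 (mm10, plus strand). The lung ∆Foxp3 libraries held it at 702, 576 and 566 CPM, against 179.6, 139.7 and 125 CPM in the lung WT libraries. The lowest lung ∆Foxp3 library thus lay well above the highest lung WT library. The log2 fold change was 2.05 ± 0.16 (SE), a 4.15-fold higher level (adjusted p = 2.27e-06, edgeR). In spleen it was at 513, 583 and 639 CPM in ∆Foxp3, against 376, 381 and 399 CPM in WT, again with no overlap. That difference was 0.59 ± 0.15 on the log2 scale, or 1.50-fold (adjusted p = 0.0105, edgeR). In bulk samples such as these, a larger share of cells with the transcript and more transcript per cell cannot be told apart. Effects of the allele inside the cells and of the surroundings in ∆Foxp3 mice cannot be told apart either. By the labels, spleen ∆Foxp3 also carried EGFP.iCre and R26.YFP, while spleen WT carried Foxp3.ires.GFP. If the labels hold, these constructs and the deletion cannot be told apart in any spleen comparison between genotypes.

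The size of the Cish difference itself differed between the tissues. The lung difference exceeded the spleen difference by 1.47 ± 0.22 on the log2 scale (interaction term, adjusted p = 0.00537, edgeR). The 4 group means were 615 ± 75.7 CPM in lung ∆Foxp3 and 578 ± 63.1 CPM in spleen ∆Foxp3, against 148 ± 28.1 CPM in lung WT and 385 ± 11.9 CPM in spleen WT (SD, n = 3 each). The ∆Foxp3 groups were thus close to each other, and lung WT was the low group. Of all genes tested, 0.925% passed the interaction test, 0.143% with a positive and 0.782% with a negative sign. Of the 8 SOCS family genes, 2 passed, Cish and Socs2, both positive. The Cish call held in each of the 23 alternatives, with adjusted p from 1.44e-07 to 0.0216.

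**Figure D1:**
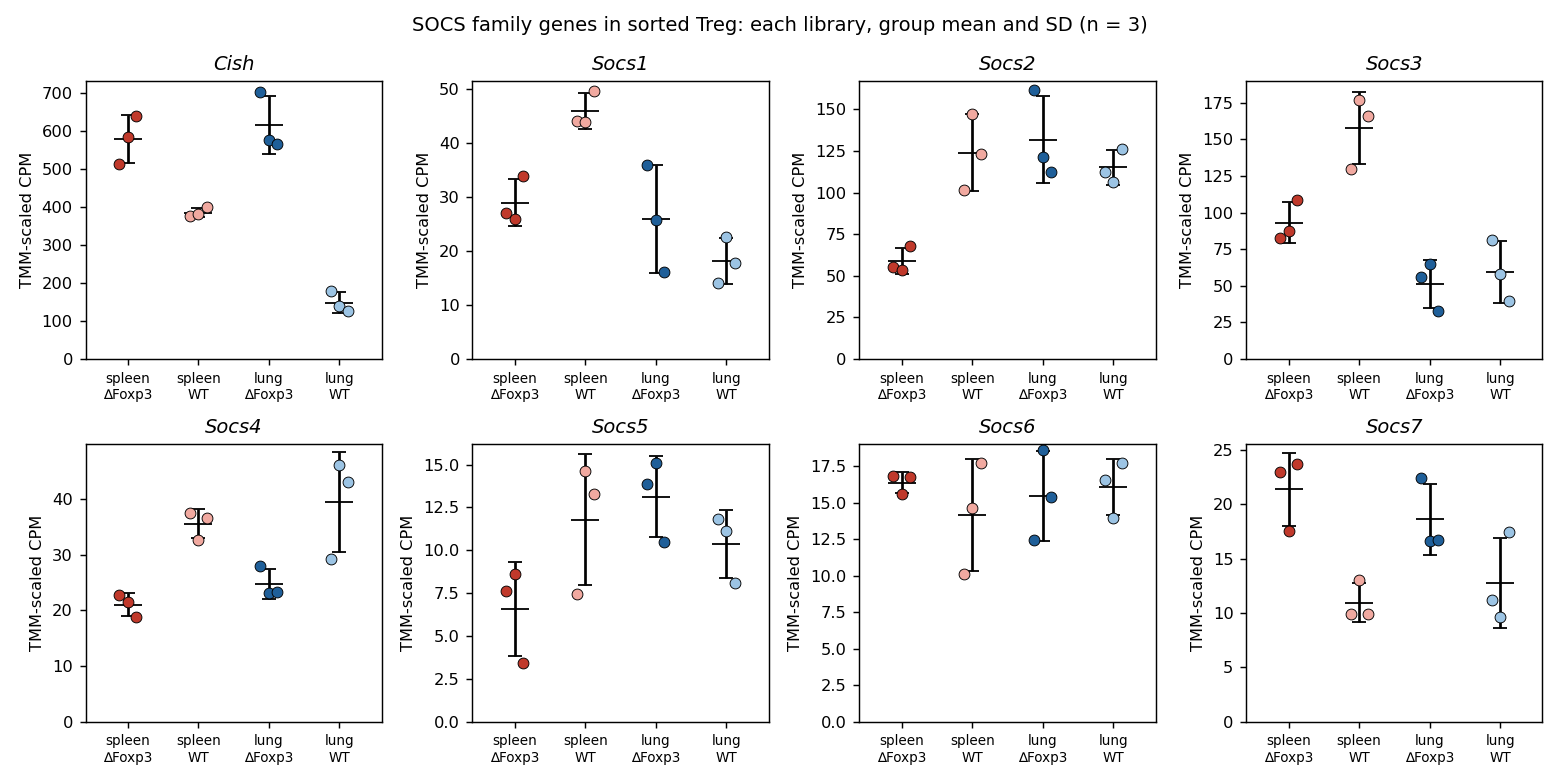
TMM-scaled CPM (y axis, from 0, one scale per gene) of the 8 SOCS family genes in each library (points), with group mean and SD (n = 3), for spleen ∆Foxp3, spleen WT, lung ∆Foxp3 and lung WT. Cish is lowest in lung WT, at 125 to 179.6 CPM, and Socs2 is lowest in spleen ∆Foxp3, at 53.5 to 68.2 CPM.

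The sequence around the annotated start of Cish is shown because Cish had the largest difference, beside that of Socs3, the other member whose window held the same motif. The windows run from 250 bases before to 50 bases after the RefSeq start (GRCm38.p6, 5′ to 3′ on the gene's strand). The gene coordinates in this text come from GENCODE M21, in which Cish and Socs3 begin further upstream. Both windows shown lie inside those gene spans, so where the start falls depends on the annotation. The table of such windows held 4 of the 8 members, Cish, Socs1, Socs3 and Socs4. They were searched for TTCNNNGAA, the palindrome that STAT dimers are known to bind, and for the wider STAT6 motif with 4 bases between TTC and GAA; both motifs read the same on either strand. Capitals mark matches.
Cish, chr9:107296409-107296708, plus strand: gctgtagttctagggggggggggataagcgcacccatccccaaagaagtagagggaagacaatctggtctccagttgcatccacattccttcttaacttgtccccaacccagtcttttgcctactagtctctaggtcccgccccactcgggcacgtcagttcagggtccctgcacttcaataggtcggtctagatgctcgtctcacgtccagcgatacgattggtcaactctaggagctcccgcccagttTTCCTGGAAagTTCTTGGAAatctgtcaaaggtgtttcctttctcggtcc
Socs3, chr11:117969317-117969616, minus strand: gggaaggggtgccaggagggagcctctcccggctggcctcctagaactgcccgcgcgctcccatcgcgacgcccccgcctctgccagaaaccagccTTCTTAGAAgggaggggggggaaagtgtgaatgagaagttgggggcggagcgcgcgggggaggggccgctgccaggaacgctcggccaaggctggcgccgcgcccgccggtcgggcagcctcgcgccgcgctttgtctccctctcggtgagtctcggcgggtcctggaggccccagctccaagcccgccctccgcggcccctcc
The Cish window held 2 matches to TTCNNNGAA, TTCCTGGAA at 107296659 to 107296667 and TTCTTGGAA at 107296670 to 107296678, the first of which begins at the start itself. The Socs3 window held 1 match, TTCTTAGAA at 117969512 to 117969520. Of 32851 windows in the table, 8.3% held at least 1 match to TTCNNNGAA and 0.457% held 2 or more. The Socs1 and Socs4 windows held no match to TTCNNNGAA, and none of the 4 windows held the wider motif, which 6.95% of all windows did. A match is a description of the letters and does not show binding.

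Socs2, whose product binds the growth hormone receptor and other cytokine receptors and is known from mice to restrain type 2 helper cells, fell in spleen ∆Foxp3, while its lung difference did not pass. The gene lies on chromosome 10, 95385362 to 95417180 (minus strand). It was at 55.1, 53.5 and 68.2 CPM in spleen ∆Foxp3, against 101, 147 and 123 CPM in spleen WT. All 3 spleen ∆Foxp3 libraries lay below all 3 of spleen WT. Its log2 fold change was −1.07 ± 0.19 (adjusted p = 0.000709, edgeR), and the call held in all 24 alternatives. The lung levels were 162, 121 and 112 CPM in ∆Foxp3, against 113, 106 and 126 CPM in WT, and the groups overlapped. The lung difference was 0.19 ± 0.18 (adjusted p = 0.496, edgeR). The test of the difference between tissues gave 1.26 ± 0.26 (adjusted p = 0.0338, edgeR). That call ended in 10 of 23 alternatives: with the replicate number as a block (adjusted p = 0.0699, edgeR), and without spleen WT 2 or 3, spleen ∆Foxp3 1 or 2, lung WT 1, 2 or 3, or lung ∆Foxp3 1 or 2 (adjusted p = 0.0546 to 0.106, edgeR).

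Socs3 and Socs1 encode the members that also block JAK kinases directly through a kinase inhibitory region. Socs3, which acts on receptors of the IL-6 type that use the Il6st chain, lies on chromosome 11, 117966079 to 117970047 (minus strand). It was at 82.6, 87.3 and 109 CPM in spleen ∆Foxp3, against 129.7, 177 and 166 CPM in spleen WT, with no overlap. Its log2 fold change was −0.76 ± 0.26 (adjusted p = 0.0443, edgeR). That call was the least stable of the family in spleen and ended in 10 of 24 alternatives. These were RLE factors, the replicate block (adjusted p = 0.0598), dropping Gm10800 and Gm10801, and dropping spleen WT 2 or 3, spleen ∆Foxp3 1 or 2, lung WT 2, or lung ∆Foxp3 1 or 2 (adjusted p = 0.0507 to 0.147 over the 10, edgeR). Lung ∆Foxp3 libraries had 56.1, 64.8 and 33.1 CPM, against 81.2, 57.8 and 39.4 CPM in lung WT. These libraries overlapped widely, with a difference of −0.21 ± 0.27 (adjusted p = 0.636, edgeR).

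Socs1, known for blocking interferon gamma signalling, lies on chromosome 16, 10782240 to 10785536 (minus strand). It was at 27.1, 25.9 and 33.9 CPM in spleen ∆Foxp3, against 44.0, 43.9 and 49.7 CPM in spleen WT. The groups did not overlap, but the difference of −0.66 ± 0.27 on the log2 scale did not pass (adjusted p = 0.0876, edgeR). It passed with limma only (adjusted p = 0.0305), and the alternatives ran from 0.0305 to 0.222. The lung levels were 36.0, 25.8 and 16.1 CPM in ∆Foxp3, against 13.998, 22.5 and 17.8 CPM in WT. These overlapped, with a difference of 0.52 ± 0.28 (adjusted p = 0.211, edgeR).

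Socs4 to Socs7 are the members for which fewer targets are known. Socs4 lies on chromosome 14, 47276931 to 47296102 (plus strand). It was at 22.7, 21.6 and 18.8 CPM in spleen ∆Foxp3, against 37.5, 32.7 and 36.6 CPM in spleen WT. Lung levels were 27.9, 23.2 and 23.2 CPM in ∆Foxp3, against 29.3, 46.1 and 43.1 CPM in WT. In each tissue all ∆Foxp3 libraries lay below all WT libraries, although in lung the gap was only that between 27.9 and 29.3 CPM. Socs4 fell in both tissues, with log2 fold changes of −0.76 ± 0.22 in spleen and −0.67 ± 0.22 in lung (edgeR adjusted p of 0.0185 and 0.0432). The spleen call ended with no low-count filter, when lung libraries left the fit and without spleen ∆Foxp3 3 (adjusted p = 0.0545 to 0.0612, edgeR). The lung call ended in 12 of 24 alternatives, among them the replicate block (0.067), no low-count filter (0.162), dropping Gm10800 and Gm10801 (0.051) or the 3 libraries that stand apart (0.0642), and dropping spleen WT 2 or 3, spleen ∆Foxp3 1, lung WT 2 or 3, or any lung ∆Foxp3 library (adjusted p = 0.0541 to 0.201, edgeR).

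Socs7, which is known to bind adaptor proteins and insulin receptor substrates, lies on chromosome 11, 97362551 to 97398542 (plus strand). It was at 23.0, 17.5 and 23.7 CPM in spleen ∆Foxp3, against 9.91, 13.0 and 9.88 CPM in spleen WT. The groups did not overlap, and Socs7 rose by 0.97 ± 0.30 on the log2 scale (adjusted p = 0.0256, edgeR). The call ended in 6 of 24 alternatives: no low-count filter, no lung libraries in the fit, removal of the 3 libraries that stand apart, and removal of spleen WT 3, spleen ∆Foxp3 1 or spleen ∆Foxp3 3 (adjusted p = 0.0622 to 0.0774, edgeR). Its lung levels were 22.4, 16.7 and 16.8 CPM in ∆Foxp3, against 11.2, 9.59 and 17.4 CPM in WT. One lung WT library lay among those of lung ∆Foxp3, and the difference of 0.54 ± 0.30 did not pass (adjusted p = 0.227, edgeR).

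Socs5, known from mice for limiting IL-4 receptor signalling when overexpressed, lies on chromosome 17, 87107679 to 87137839. Socs6, which is known to bind the receptor tyrosine kinase Kit, lies on chromosome 18, 88665224 to 88927481. Over the 12 libraries their mean levels were the lowest of the family, narrowly so for Socs6 (15.5 CPM, against 15.9 CPM for Socs7, which lay below Socs6 in both WT groups). Single libraries held 3.44 to 15.1 CPM for Socs5 and 10.1 to 18.6 CPM for Socs6. Socs5 averaged 6.57 ± 2.76 CPM in spleen ∆Foxp3 and 11.8 ± 3.81 CPM in spleen WT (SD, n = 3), a log2 difference of −0.85 ± 0.40 that did not pass (adjusted p = 0.134, edgeR). In lung it averaged 13.1 ± 2.36 CPM in ∆Foxp3 and 10.4 ± 2.00 CPM in WT (adjusted p = 0.584, edgeR). Socs6 averaged 16.4 ± 0.709 CPM in spleen ∆Foxp3 and 14.2 ± 3.83 CPM in spleen WT (adjusted p = 0.627, edgeR). In lung it averaged 15.5 ± 3.09 CPM in ∆Foxp3 and 16.1 ± 1.93 CPM in WT (adjusted p = 0.921, edgeR). Neither gene passed in any of the comparisons or alternatives run; the lowest adjusted p among them was 0.0534, for Socs5 in spleen with limma.

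Over the family, 5 of 8 members passed in spleen, 2 higher and 3 lower in ∆Foxp3, where 26.6% of all genes tested passed (14.1% higher and 12.5% lower). The members' median log2 fold change was −0.71, against −0.02 over all genes tested. In lung 2 of 8 passed, Cish higher and Socs4 lower, a share near the 20.2% of all genes that passed there (9.74% higher and 10.5% lower). The median was 0.27, against −0.01 over all genes. With the replicate block, 1 of 8 passed in lung.

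**Figure D2:**
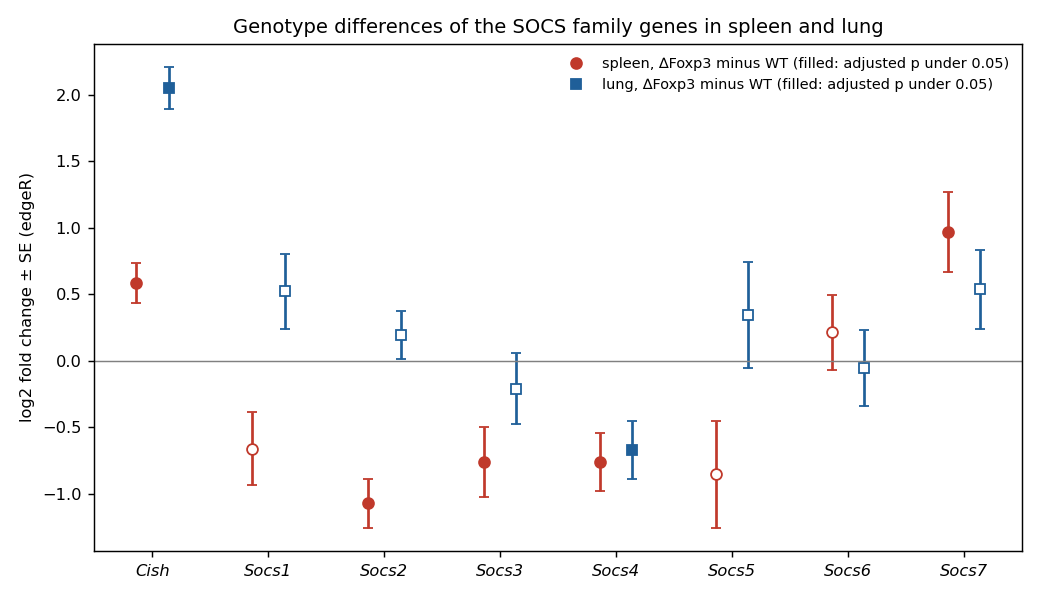
Log2 fold change, ∆Foxp3 minus WT, with its SE (y axis) for each SOCS family gene (x axis) in spleen (circles) and lung (squares); filled symbols passed an adjusted p of 0.05. Cish is positive in both tissues, at 0.59 in spleen and 2.05 in lung, Socs4 is negative in both, and Socs2 is at −1.07 in spleen and 0.19 in lung.

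The balance of Cish to the other members was read from raw counts within each library, which needs no scaling between libraries; these ratios were chosen after the values were seen and carry no test. There were 6.20, 6.68 and 5.86 Cish counts per Socs3 count in spleen ∆Foxp3, against 2.90, 2.15 and 2.40 in spleen WT. In lung there were 12.5, 8.89 and 17.1 in ∆Foxp3, against 2.21, 2.42 and 3.18 in WT. The WT groups overlapped each other, and every ∆Foxp3 library lay above every WT library. Cish counts per Socs2 count were 9.31, 10.9 and 9.37 in spleen ∆Foxp3, against 3.71, 2.59 and 3.23 in spleen WT. In lung they were 4.35, 4.75 and 5.04 in ∆Foxp3, against 1.59, 1.31 and 0.992 in WT. Here the 4 groups did not overlap at all. Cish alone made up 68.6% to 71.7% of the family's counts in spleen ∆Foxp3, against 46.2% to 52.5% in spleen WT. It made up 66.9% to 71.3% in lung ∆Foxp3, against 31.7% to 39.4% in lung WT.

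**Figure D3:**
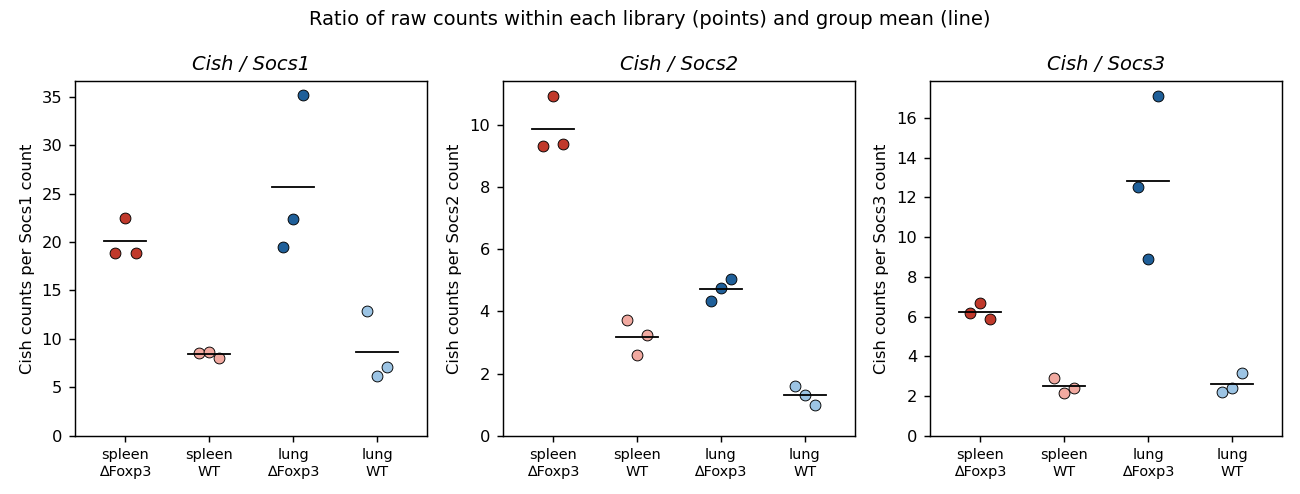
Ratio of raw counts of Cish to those of Socs1, Socs2 and Socs3 (y axes, from 0) in each library (points), with the group mean (line), for the 4 groups. For Socs2 and Socs3, as for Socs1, every ∆Foxp3 library lies above every WT library of its tissue; the lung ∆Foxp3 library with the highest ratio to Socs3, 17.1, is replicate 3.

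Lung Treg were also set against splenic Treg within each genotype. Lungs were digested with collagenase and DNase and enriched magnetically while spleens were only strained, so tissue and preparation cannot be told apart. In WT cells, 3 of 8 members were lower in lung, Cish, Socs1 and Socs3, where 4.13% of all genes tested passed (3.1% higher and 1.03% lower in lung). Cish was lower by a log2 difference of −1.38 ± 0.16 (adjusted p = 0.000212), Socs3 by −1.41 ± 0.27 (adjusted p = 0.00787) and Socs1 by −1.34 ± 0.28 (adjusted p = 0.0134, edgeR). For all 3 genes the lung WT libraries given above lay below the spleen WT libraries. The Socs1 call ended without lung WT 1 or without lung WT 3 (adjusted p = 0.0502 and 0.0576, edgeR). The Socs2 difference between the tissues in WT was −0.11 ± 0.18 and did not pass (adjusted p = 0.808, edgeR).

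In ∆Foxp3 cells, where the alleles named in the labels also differ between the tissues, 1 of 8 members passed, Socs2, which was higher in lung by 1.16 ± 0.19 on the log2 scale (adjusted p = 0.008, edgeR). Over all genes 0.722% passed, 0.549% higher and 0.173% lower in lung. Cish differed by 0.09 ± 0.15 between the ∆Foxp3 groups (adjusted p = 0.946, edgeR). Socs3 was at 56.1, 64.8 and 33.1 CPM in lung ∆Foxp3, below the 82.6 to 109 CPM of spleen ∆Foxp3, with a difference of −0.86 ± 0.27 that did not pass (adjusted p = 0.246, edgeR). Without a low-count filter it did (adjusted p = 0.00353, edgeR), with alternatives from 0.00353 to 0.628. These comparisons and those between genotypes use the same 4 groups and are not independent of each other.

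Levels of different members were compared per kilobase of annotated exon. Cish, Socs1, Socs2 and Socs3 held the upper 4 places by mean and Socs4 to Socs7 the lower 4 in each of the 4 groups, although Socs1 and Socs4 overlapped in lung WT, whether the length was that of all annotated exons or of protein-coding transcripts only. In spleen ∆Foxp3, Cish was at 90.0 ± 9.83 CPM per kb of exon and Socs3 at 32.1 ± 4.85, while in spleen WT they were at 60.0 ± 1.85 and 54.5 ± 8.56, with overlapping libraries. In lung ∆Foxp3, Cish was at 95.8 ± 11.8 and Socs3 at 17.7 ± 5.67 CPM per kb, and in lung WT at 23.1 ± 4.38 and 20.6 ± 7.25, again with overlapping libraries (SD, n = 3 each). Socs5, Socs6 and Socs7 did not differ beyond their spread in either WT group, where they lay at 1.25 to 1.84 CPM per kb on average. With protein-coding lengths, a choice made after seeing the data, Socs2 stood at 42.7 ± 3.82 CPM per kb in lung WT, overlapping Cish at 40.6 ± 7.71. With those lengths Cish and Socs3 no longer overlapped in WT cells. Cish libraries held 103 to 109 CPM per kb in spleen WT, against 50.8 to 69.4 for Socs3. In lung WT they held 34.4 to 49.2 CPM per kb, against 15.4 to 31.8 for Socs3. The order within the upper 4 therefore depends on which transcripts are counted as the gene.

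**Figure D4:**
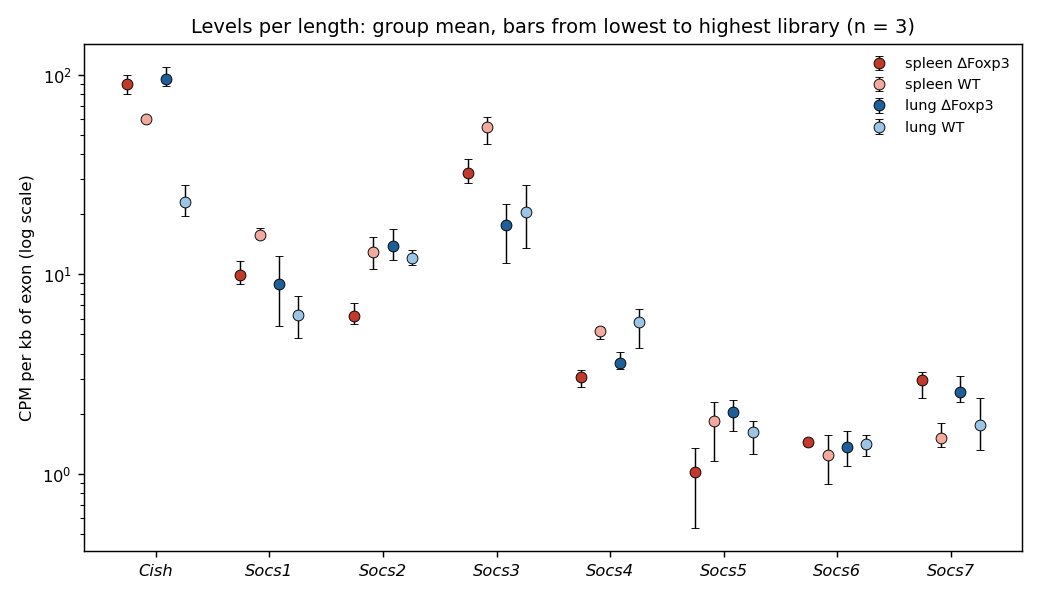
CPM per kb of annotated exon (y axis, log scale) of the 8 SOCS family genes in the 4 groups; points are group means and bars run from the lowest to the highest library (n = 3). Cish is the highest member in the ∆Foxp3 groups, at 90.0 and 95.8 CPM per kb, and its libraries overlap those of Socs3 in both WT groups. With protein-coding lengths, not plotted, Cish and Socs3 do not overlap in either WT group.

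The signalling chain around the family was described from lists of its receptors, kinases, STAT factors and ligase partners, whose shares stand beside the 26.6% of all genes that passed in spleen and the 20.2% in lung. Of 21 cytokine receptor chains tested, 3 rose and 9 fell in spleen ∆Foxp3, and 5 rose and 7 fell in lung ∆Foxp3, 57.1% of the list in each tissue, with median log2 fold changes of −0.47 and −0.41. Il6ra, the IL-6 receptor chain, was at 19.5 ± 4.63 CPM in spleen ∆Foxp3 and 196 ± 20.8 CPM in spleen WT, and at 19.3 ± 12.3 CPM in lung ∆Foxp3 and 218 ± 27.8 CPM in lung WT. It fell in both tissues, with log2 fold changes of −3.34 ± 0.33 in spleen and −3.50 ± 0.33 in lung (edgeR adjusted p of 1.16e-05 and 1.85e-05). Ifnar1, a chain of the type I interferon receptor, fell by 1.07 ± 0.13 in each tissue (adjusted p = 4.9e-05 in spleen and 9.43e-05 in lung, edgeR). Il2ra, the IL-2 receptor chain in the sorting gate, fell by 1.02 ± 0.23 in spleen (adjusted p = 0.00531), and its lung difference was −0.49 ± 0.23 (adjusted p = 0.156, edgeR). Its product, CD25, was part of the sorting gate.

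Of the 4 JAK kinases, 2 passed in each tissue (50%). In spleen ∆Foxp3 Jak3 rose by 0.54 ± 0.12 (adjusted p = 0.00501) and Jak2 by 0.69 ± 0.21 (adjusted p = 0.0263, edgeR). In lung Jak2 rose by 0.82 ± 0.21 (adjusted p = 0.0142) and Jak1 fell by 0.64 ± 0.15 (adjusted p = 0.00897, edgeR). The Jak2 call ended in spleen with limma and without spleen WT 1, spleen ∆Foxp3 3 or the libraries that stand apart (adjusted p = 0.0614 to 0.0727), and in lung without lung WT 3 (0.0514). The Jak1 call ended without lung WT 1, lung ∆Foxp3 2 or the libraries that stand apart (adjusted p = 0.0542 to 0.0609). Of 7 STAT factors, the same 2 genes fell in both tissues, Stat5b and Stat2. That is 28.6% of the list in each tissue, near the shares of all genes, 26.6% in spleen and 20.2% in lung. Stat5b, which carries IL-2 signals, was at 81.4 ± 13.3 CPM in spleen ∆Foxp3 and 135 ± 30.8 CPM in spleen WT, and at 90.5 ± 16.6 CPM in lung ∆Foxp3 and 230.1 ± 15.9 CPM in lung WT. It fell in both tissues, with log2 fold changes of −0.73 ± 0.19 in spleen and −1.35 ± 0.19 in lung (edgeR adjusted p of 0.0114 and 0.000294). Stat2, which carries type I interferon signals, fell by 0.70 ± 0.16 in each tissue (adjusted p = 0.00486 in spleen and 0.00711 in lung, edgeR). The Stat5b call in spleen ended without spleen WT 3 (adjusted p = 0.0605), and the Stat2 call in lung without lung WT 1, lung ∆Foxp3 3 or the libraries that stand apart (adjusted p = 0.0509 to 0.119).

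Of 17 cytokine genes listed as ligands of this pathway, only 8 had enough counts to be tested. Of these, 7 rose in spleen ∆Foxp3 (87.5%) and 8 in lung ∆Foxp3 (100%). Some, such as Il4, passed the low-count filter only through ∆Foxp3 libraries. These shares were thus partly fixed by the filter and cannot be set against those of all genes. Il4 was at 54.5 ± 48.9 CPM in spleen ∆Foxp3 and at 125 ± 29.6 CPM in lung ∆Foxp3, with no count in either WT group (adjusted p = 0.000515 in spleen and 0.000611 in lung, edgeR). Lif, which signals through Il6st, was at 27.0 ± 19.9 CPM in spleen ∆Foxp3 and 2.82 ± 2.17 CPM in spleen WT, and at 38.4 ± 15.4 CPM in lung ∆Foxp3 and 0.504 ± 0.498 CPM in lung WT (adjusted p = 0.00249 in spleen and 0.000275 in lung, edgeR). Of the 6 ubiquitin ligase partners, Rnf7 passed in spleen, at 0.47 ± 0.16 (adjusted p = 0.0469), and Cul2 in lung, at 0.67 ± 0.20 (adjusted p = 0.0305, edgeR). The Rnf7 call ended in 12 alternatives, among them the replicate block (0.0625) and leaving out spleen WT 2 or 3, any spleen ∆Foxp3 library, lung WT 2 or lung ∆Foxp3 3 (adjusted p = 0.0509 to 0.218 over the 12). The Cul2 call ended in 5, without lung WT 2 or 3, lung ∆Foxp3 2 or 3, or the libraries that stand apart (adjusted p = 0.0646 to 0.0974). The shares that passed, 16.7% in each tissue, lay below those of all genes.

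Of 13 other genes whose products carry a SOCS box, 2 rose and 1 fell in spleen ∆Foxp3, and 1 rose and 1 fell in lung ∆Foxp3. These shares, 23.1% and 15.4%, did not exceed those of all genes. Asb2, known from mice as a ubiquitin ligase subunit of type 2 helper cells, was at 81.1 ± 30.2 CPM in spleen ∆Foxp3 and 22.6 ± 12.7 CPM in spleen WT, and at 105 ± 15.4 CPM in lung ∆Foxp3 and 15.6 ± 14.1 CPM in lung WT. It rose in both tissues, with log2 fold changes of 1.83 ± 0.53 in spleen and 2.78 ± 0.56 in lung (edgeR adjusted p of 0.0239 and 0.00488). The spleen call ended with no low-count filter and without spleen WT 2 or 3 or spleen ∆Foxp3 2 (adjusted p = 0.0890 to 0.170). Of 15 other inhibitors of JAK-STAT signalling, 1 rose and 3 fell in spleen, and 6 fell in lung, with medians of −0.30 and −0.43. That is 26.7% in spleen, near the share of all genes, and 40% in lung. Usp18, which dampens the type I interferon receptor, fell in both tissues, with log2 fold changes of −3.16 ± 0.43 in spleen and −3.40 ± 0.45 in lung (edgeR adjusted p of 0.000164 and 0.000256). Cbl, a ubiquitin ligase that limits receptor signals, fell in both tissues, with log2 fold changes of −1.19 ± 0.21 in spleen and −1.51 ± 0.21 in lung (edgeR adjusted p of 0.00082 and 0.000251).

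**Figure D5:**
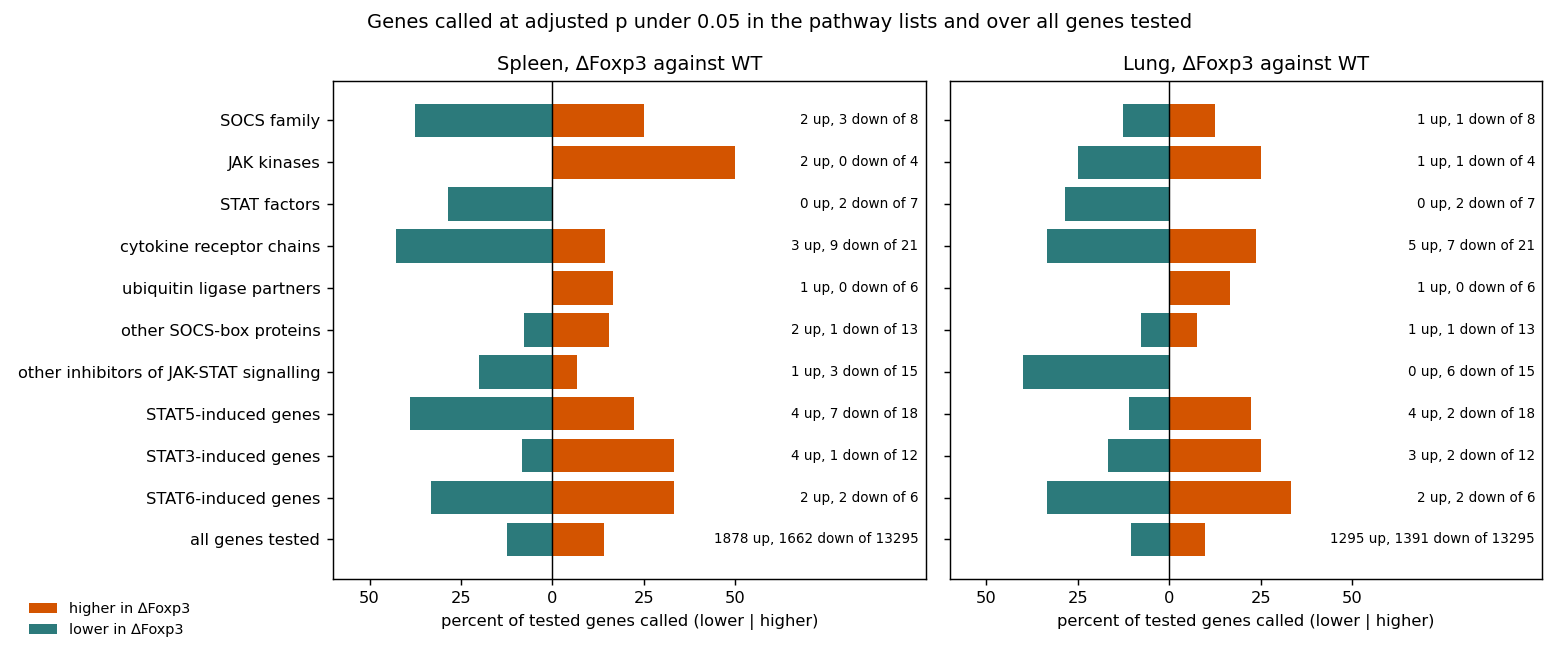
Percent of the tested genes of the lists named in the plot, and of all genes tested, that passed an adjusted p of 0.05 as higher (right of 0) or lower (left of 0) in ∆Foxp3 than in WT cells, for spleen and lung. In spleen 2 SOCS family genes were higher and 3 lower; in lung 1 was higher and 1 lower.

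Among genes that STAT factors are known to induce, some rose and some fell in each tissue, and their link to Cish was not tested. Of all genes tested, 26.6% passed in spleen and 20.2% in lung. Of 18 STAT5-induced genes, 4 rose and 7 fell in spleen ∆Foxp3 (61.1%) and 4 rose and 2 fell in lung ∆Foxp3 (33.3%), with medians of −0.27 and 0.41. Pim1, a survival kinase, was at 66.1 ± 15.5 CPM in spleen ∆Foxp3 and 191 ± 14.4 CPM in spleen WT, and at 109 ± 1.55 CPM in lung ∆Foxp3 and 298 ± 17.3 CPM in lung WT. It fell in both tissues, with log2 fold changes of −1.53 ± 0.17 in spleen and −1.45 ± 0.16 in lung (edgeR adjusted p of 1.64e-05 and 4.67e-05). Il1rl1, the IL-33 receptor, rose in both tissues, with log2 fold changes of 2.19 ± 0.32 in spleen and 1.87 ± 0.31 in lung (edgeR adjusted p of 0.000245 and 0.00109). Nfil3, a transcription factor, was at 23.7 ± 11.0 CPM in spleen ∆Foxp3 and 1.58 ± 0.901 CPM in spleen WT, and at 29.8 ± 2.19 CPM in lung ∆Foxp3 and 17.7 ± 6.15 CPM in lung WT. It rose by 3.93 ± 0.49 in spleen (adjusted p = 4.55e-05, edgeR).

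Of 12 STAT3-induced genes, 4 rose and 1 fell in spleen, and 3 rose and 2 fell in lung, 41.7% in each tissue; Maf rose in both tissues, with log2 fold changes of 1.79 ± 0.19 in spleen and 1.00 ± 0.18 in lung (edgeR adjusted p of 1.3e-05 and 0.00175). Of 6 STAT6-induced genes, 2 rose and 2 fell in each tissue (66.7%). Gata3, the factor of type 2 helper cells, rose in both tissues, with log2 fold changes of 0.81 ± 0.24 in spleen and 1.13 ± 0.24 in lung (edgeR adjusted p of 0.0223 and 0.00497). Its spleen groups overlapped, and the spleen call ended with limma, when lung libraries left the fit and without spleen WT 2 or 3 or spleen ∆Foxp3 2 (adjusted p = 0.0697 to 0.124). Ccr8, a chemokine receptor gene, rose by 2.49 ± 0.28 in lung (adjusted p = 4.67e-05, edgeR). These lists share some genes, and their genes answer to other signals as well.

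Between the WT groups, where Cish, Socs1 and Socs3 were lower in lung, 5 of 18 STAT5-induced genes passed, 3 higher and 2 lower in lung. That is 27.8% of the list, against 4.13% of all genes tested (3.1% higher and 1.03% lower in lung). Myc was at 116 ± 36.8 CPM in lung WT and 287 ± 71.0 CPM in spleen WT, a log2 difference of −1.30 ± 0.23 (adjusted p = 0.00421, edgeR). Nfil3 was higher in lung WT by 3.52 ± 0.49 (adjusted p = 0.000987) and Il1rl1 by 1.86 ± 0.32 (adjusted p = 0.00496, edgeR). The share was not raised for this list alone. Of 12 STAT3-induced genes, 2 were higher in lung WT (16.7%), Junb and Pim1, whose calls ended in 7 and 9 alternatives. Of 6 STAT6-induced genes, 1 was higher (16.7%), Ccr4. Stat5b was higher in lung WT by 0.77 ± 0.19 (adjusted p = 0.0317, edgeR), a call that ended in 7 alternatives, with library totals and without spleen WT 1 or 2, any lung WT library or the libraries that stand apart (adjusted p = 0.0624 to 0.192).

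The genes whose log2 CPM followed a member most closely over the 12 libraries were sought among 8368 genes at a mean of 10 CPM or more, as a description; the libraries share 4 groups, so group differences alone give high correlations. Closest to Cish were Dusp6, a phosphatase of ERK kinases (Pearson r = 0.967), Drosha, the nuclease of microRNA processing (r = 0.946), and Egr2, an early growth response factor (r = 0.939). Dusp6 was at 92.9 ± 15.6 CPM in lung ∆Foxp3 and 9.77 ± 2.18 CPM in lung WT, and at 85.3 ± 17.1 CPM in spleen ∆Foxp3 and 34.6 ± 7.42 CPM in spleen WT. Egr2 was at 70.1 ± 29.3 CPM in lung ∆Foxp3 and 0.867 ± 0.861 CPM in lung WT, and at 64.9 ± 17.7 CPM in spleen ∆Foxp3 and 54.2 ± 13.96 CPM in spleen WT. Both shared with Cish their lowest level in lung WT. By rank correlation none of these 3 was among the 3 closest.

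The closest genes to Socs1 were Rnpc3, Faim and Tor4a (r = 0.866 to 0.899). Brd2 (r = 0.918) and Xpr1 (r = 0.888) were among the closest to Socs2. For Socs3 the closest were Zfp738, Rbm26 and Slc9a8 (r = 0.897 to 0.953), and for Socs4 Sh2d1a, Zfp335 and Galnt10 (r = 0.939 to 0.942). For Socs5 they were Map1s, Bcl6 and Alg2, for Socs6 Polr2a, Zfp846 and Map3k4, and for Socs7 Pik3cg, Grn and Cox15 (r = 0.863 to 0.917). Among the members themselves, Socs1 and Socs3 were the most alike (r = 0.769), Cish and Socs4 ran opposite (r = −0.785), and Cish and Socs2 were weakly related (r = −0.257), all over 12 libraries.

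Markers of other cells moved with some of these groups, in either direction. The B and plasma cell list (8 genes, mostly Ighm) summed to 76.6 to 161 CPM in spleen ∆Foxp3, against 1125 to 1287 CPM in spleen WT. They were at 134 to 262 CPM in lung ∆Foxp3, against 1938 to 1978 CPM in lung WT. The 8 erythroid and platelet markers were at 1.19 to 408 CPM in lung ∆Foxp3, against 1975 to 4902 CPM in lung WT. The 12 monocyte, macrophage and dendritic cell markers, mostly Ctss, were at 283 to 662 CPM in spleen ∆Foxp3 and 370.3 to 626 CPM in spleen WT, and at 162 to 237 CPM in lung ∆Foxp3 and 253 to 529.6 CPM in lung WT. Ctss outweighs genes of this list that differed between tissues. In WT cells 3 of 11 tested were lower in lung and 0 higher, where 4.13% of all genes passed. They were C1qa, C1qb and Adgre1, at log2 −7.51, −9.78 and −3.44 (adjusted p = 0.00592 to 0.0492, edgeR). In ∆Foxp3 cells 4 were lower in lung and 0 higher, where 0.722% of all genes passed. They were Csf1r, Adgre1, C1qa and C1qb, at log2 −9.24 to −7.08 (adjusted p = 0.00902 to 0.0461, edgeR). The 6 endothelium markers, mostly Pecam1, were at 89.7 to 147 CPM in spleen ∆Foxp3 and 269 to 329 CPM in spleen WT, and at 113 to 119 CPM in lung ∆Foxp3 and 284 to 330.4 CPM in lung WT. Lung epithelium markers, 7 genes, summed to 7.67 to 18.7 CPM in spleen ∆Foxp3 and 34.5 to 45.4 CPM in spleen WT. In lung they summed to 15.1 to 22.6 CPM in ∆Foxp3 and 54.2 to 223 CPM in WT. The 7 fibroblast and smooth muscle markers were higher in ∆Foxp3. They summed to 19.2 to 24.9 CPM in spleen ∆Foxp3 and 4.47 to 6.35 CPM in spleen WT. In lung they summed to 20.8 to 52.5 CPM in ∆Foxp3 and 8.40 to 11.1 CPM in WT. Sums of neutrophil and mast cell and of CD8 T and NK cell markers overlapped between genotypes in both tissues. Within these, Klrk1 (adjusted p = 0.00272) and Kit (0.0171, edgeR) were higher in lung ∆Foxp3. The Kit call ended in 2 alternatives. The part of such cells in the levels of Cish, Socs2 or the other members was not tested. No exon of a member overlapped that of another gene except for Cish, which shares bases with the antisense genes Gm17040 and Gm17041; over all libraries these had 25 and 0 counts, against 27886 for Cish.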

How the data were processed

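The deposited table holds the authors' raw counts for 12 libraries by gene symbol, used as they stood; its columns were matched to the labels by title. Per the labels' protocols, cDNA was primed with oligo(dT), fragmented with Tn5 and amplified for 18 cycles, and read as pairs of 38 nt without molecular identifiers, so counts are not independent molecules and floors cover counting error only. The submitters' processing notes name mm10, STAR 2.7.3a, Subread 2.0.0 and featureCounts. Neither the annotation nor the strand setting is given in the sources used here. Reads of overlapping antisense genes therefore cannot be told apart.

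Genes passing edgeR's default low-count filter by group (13295) entered edgeR's quasi-likelihood F test (version 4.0.16 under R 4.3.3, TMM factors, robust dispersion) in 1 fit of the 12 libraries with group as the only term. P-values are two-sided and adjusted by Benjamini-Hochberg over all genes tested, and calls were made under an adjusted p of 0.05. The fit was tested on simulated data, where it missed some of the changes put in. A difference that did not pass is therefore not shown to be absent. The members and the gene lists were chosen with earlier results of these data known. Named from each list were up to 3 called genes of the smallest adjusted p, or else the 2 of the highest level, the checks Foxp3, Il2ra, Cd4, Cd3e, Trbc1 and Trbc2, and the 3 closest genes by Pearson correlation for each member; lists without a call are described for the genotype comparisons only. Exon lengths and coordinates are from GENCODE M21 and promoter windows from RefSeq (GRCm38.p6).

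Tried as alternatives were scaling by RLE, by upper quartile and by library totals, filters of none and of 10 CPM in 3 libraries, DESeq2 1.42.0, limma 3.58.1 (voom with sample quality weights), edgeR without robust estimation, only the groups compared, the replicate number as a block, removal of Gm10800 and Gm10801, and removal of libraries. The length of protein-coding transcripts was added after seeing the data. Some listed genes and 1 gene list are not reported here.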

Additional observations from a re-analysis of the deposited data

Results flagged for a closer look

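The genotype difference of 4 reported genes differed between lung and spleen by the interaction term of the same fit (edgeR, lung minus spleen, log2). It was 1.47 for Cish (adjusted p = 0.00537) and 1.26 for Socs2 (adjusted p = 0.0338). It was 1.71 for Ccr8 (adjusted p = 0.0486), which was at 280.4 ± 51.5 CPM in lung ∆Foxp3 and 49.8 ± 20.9 CPM in lung WT, and at 119 ± 28.5 CPM in spleen ∆Foxp3 and 68.7 ± 15.1 CPM in spleen WT (SD, n = 3 each). It was −3.19 for Nfil3 (adjusted p = 0.0267), the 1 of the 4 whose difference was larger in spleen. Of 23 alternatives, 12 ended the Ccr8 call, among them RLE factors (adjusted p = 0.0593), the replicate block (0.0603) and the removal of any spleen WT library, spleen ∆Foxp3 1 or 3, lung WT 2 or 3, or any lung ∆Foxp3 library (up to 0.157). For Nfil3, 9 did so, namely limma (adjusted p = 0.13) and the removal of spleen WT 2, spleen ∆Foxp3 2, lung WT 2 or 3, any lung ∆Foxp3 library, or the 3 libraries that stand apart (adjusted p = 0.0526 to 0.082). The labels name different ∆Foxp3 alleles for the tissues, so tissue and allele cannot be told apart in these differences.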

How the results depend on the processing

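Of 952 values of a member under an alternative, 892 kept their direction and their side of the threshold, 43 lost a call, 2 gained one and 15 changed sign, none of these 15 on a called value; the cause was not tested. Of 2337 such values of the other named genes, 2117 were kept in this sense, 218 lost a call and 2 gained one.

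The number of members that passed was 3 of 8 in spleen, in place of 5, when low counts were not filtered or lung libraries left the fit. Only Socs3 was lost there with RLE factors, the replicate block or without Gm10800 and Gm10801, and only Socs7 without the 3 libraries that stand apart. With limma Socs1 passed in addition in spleen (adjusted p = 0.0305), and no spleen call was lost. In lung it was 1, in place of 2, with no filter, with the replicate block, without Gm10800 and Gm10801, or without the 3 libraries that stand apart. It was 2, in place of 1, between the ∆Foxp3 groups with no filter, and 1, in place of 2, for the interaction with the replicate block. Leaving out single libraries gave 3 to 5 in spleen, 1 to 2 in lung, 1 between the ∆Foxp3 groups, 2 to 3 between the WT groups and 1 to 2 for the interaction.

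Over all genes, calls between genotypes in spleen were 2287 when lung libraries left the fit, against 3540. In lung they were 4598 with limma and 1321 without the libraries that stand apart, against 2686. Between the ∆Foxp3 groups they were 292 without a filter, 235 with DESeq2 and 228 with limma, against 96, and between the WT groups 957, 1046 and 1046, against 549. For the interaction, whose gene counts were compared after seeing the data, they were 363 without a filter, 304 with DESeq2, 190 with limma and 74 with the replicate block, against 123. Leaving out single libraries gave 2710 to 3575 in spleen, 1457 to 3364 in lung, 42 to 152 between the ∆Foxp3 groups, 281 to 693 between the WT groups and 36 to 178 for the interaction.

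Signs changed for differences near 0. Without the 3 libraries that stand apart, Socs3 in lung was 0.353, Socs1 between the ∆Foxp3 groups 0.102 and the Socs4 interaction −0.0919. With limma, Socs6 in lung was 0.0265 and the Socs4 interaction −0.0800. Over fits that each left out a single library, Socs3 in lung ran from −0.403 to 0.124 and Socs6 in lung from −0.170 to 0.121. Between the ∆Foxp3 groups Socs1 ran from −0.442 to 0.103 and Socs6 from −0.209 to 0.0815. Between the WT groups Socs2 ran from −0.208 to 0.0340 and Socs7 from −0.0532 to 0.418. The Socs4 interaction ran from −0.0792 to 0.211.

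Replicate numbers are shared by the groups. Deviations of same-numbered libraries from their group means correlated at only −0.077 to 0.087. No pairing was seen, but this cannot exclude it, because spread among single libraries could hide it. The block is an alternative only, and the calls of members lost under it are given with Socs2, Socs3 and Socs4. With protein-coding lengths, 4 of 8 members kept their place in the order in spleen WT, 4 in lung ∆Foxp3 and 3 in lung WT. Depth limits Socs5 most, with as few as 24 counts in a library, against 37 for Socs7 and 54 for Socs6.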
